A study of Mus musculus with 18 samples.

Results

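The genes described here are 37 genes of glucose uptake, glycolysis, the pentose phosphate pathway and their control by the hypoxia-inducible factor HIF-1α, chosen by name from the 50600 genes of a count table of sorted regulatory T cells (Tregs). They comprise 2 glucose transporters, 4 genes of hexose phosphorylation, 6 of fructose bisphosphate control, 4 of the aldolase and triose steps, 5 of lower glycolysis, 4 of lactate production and export, 3 of pyruvate entry into the mitochondrion, 6 of the pentose phosphate pathway and 3 of the hypoxia response. All 37 were found in the table, and all 37 passed the filter on low counts in both tissues. Tregs were compared between mice with and without CD25, the α-subunit of the IL-2 receptor encoded by Il2ra, in the thymus and in the spleen, 18 mice in all and each sample from a single mouse. In the thymus, 5 CD25 flox/Foxp3-YFP/Cre mice were set against 5 Foxp3/RFP reporter mice, all 3 to 4 weeks old. The thymic CD25 KO mice had been “cured” of autoimmunity as newborns by an infusion of WT splenocytes, and their Cre is active in every cell that turns on Foxp3, so CD25 is lost while thymic Tregs form. In the spleen, 4 mice of the genotype CD25 flox/Foxp3eGFP-Cre-ERT2/R26Y stood against 4 reporter controls that kept CD25. Tamoxifen, which activates this Cre in mature Foxp3+ cells, was given to splenic mice at 7 to 10 weeks of age, 10 to 14 days before harvest. All mice were C57BL/6. The samples without CD25 are called CD25 KO and the reporter controls WT. Thymic WT and CD25 KO mice carried different Foxp3 reporter alleles, and only the CD25 KO mice had received cells. Between the tissues, age, mouse model and sequencing run changed together with the tissue and cannot be told apart.

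Glucose enters T cells through facilitative transporters and is trapped by hexokinase as glucose 6-phosphate. Glycolysis then splits it into trioses and ends in pyruvate, which is either reduced to lactate and exported or oxidised by pyruvate dehydrogenase. The pentose phosphate pathway branches off at glucose 6-phosphate and yields NADPH and ribose for nucleotides. IL-2 and T cell receptor signals are known to raise glycolytic genes in activated T cells through mTORC1, Myc and HIF-1α, whereas resting Tregs are known to rely more on lipid oxidation.

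Each thymic library held 17239774 to 23993674 counts and each splenic library 25258341 to 32639570. Levels are given as CPM, counts scaled to a common library size, and 3 counts, taken as the smallest detectable level, corresponded to 0.095 to 0.163 CPM. Il2ra was at 524 to 682 CPM in thymic WT Tregs, and at 105, 280, 96.1, 234 and 95.9 CPM in the 5 thymic CD25 KO mice. In the spleen it was at 488 to 539 CPM in WT and 168 to 208 CPM in CD25 KO Tregs. The floxed allele removes only a part of the gene, so reads from the rest of Il2ra remain. Of 6 Treg markers, Foxp3, Cd3e, Cd4 and Ikzf2 were at 204 CPM or more in every sample. Ctla4 was at 41.8 to 78.1 CPM and Tnfrsf18 at 93.5 to 173 CPM. Several differed by genotype in edgeR's quasi-likelihood test. In thymic CD25 KO Tregs, Foxp3 (log2 fold change -0.74, FDR = 0.00101), Cd3e (-0.43, FDR = 0.000557) and Tnfrsf18 (-0.44, FDR = 0.00538) were lower. In splenic CD25 KO Tregs, Foxp3 was lower (-0.55, FDR = 6.9e-06). Cd3e (0.24, FDR = 0.00724), Cd4 (0.32, FDR = 0.000675) and Ikzf2 (0.37, FDR = 0.000859) were higher there. The thymic CD25 KO mice 2 and 4, which kept the most Il2ra, also stood apart in a list of 24 cell cycle genes: its summed level was 1880 and 1590 CPM in these mice, 433 to 570 CPM in the other 3 CD25 KO mice and 1100 to 2210 CPM in WT mice. Results on the thymus are therefore also given without these 2 mice. In a bulk sample, fewer cells of a type and less RNA per cell cannot be told apart.

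In WT Tregs, glycolytic genes differed greatly in level. Per kilobase of exon, the most abundant members in the thymus were Ldha, the lactate dehydrogenase subunit that favours lactate formation, at 121 ± 10.8 CPM per kb (SD, n = 5), Pkm, pyruvate kinase, at 93.3 ± 10.1, and Gapdh, at 81.5 ± 6.36. In the spleen, Ldha was at 86.8 ± 5.53 CPM per kb (SD, n = 4), Aldoa, the major aldolase, at 79.8 ± 2.79, Gapdh at 78.9 ± 2.68 and Pkm at 76.1 ± 2.91, and below Ldha the neighbours in this order did not differ beyond their SD. Hk3, a hexokinase known from myeloid cells, was the least abundant member in both tissues, at 0.132 ± 0.0369 CPM per kb in thymic and 0.526 ± 0.136 in splenic WT Tregs. The next lowest was Aldoc, the brain-type aldolase, at 0.475 ± 0.0914 in the thymus, and Bnip3, a mitophagy receptor, at 0.84 ± 0.0753 in the spleen, where Aldoc was at 1.31 ± 0.162.

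Glycolytic genes fell, and none rose by the test, in thymic CD25 KO Tregs. Of the 37 members, 11 were called lower (29.7%) and 0 higher at FDR < 0.01 by edgeR (quasi-likelihood test, Benjamini-Hochberg adjustment over the 16986 genes tested), against a background of 2.99% of all genes called lower and 3.17% called higher. The 11 were Hk2, Aldoc, Tpi1, Gapdh, Pgk1, Pgam1, Eno1, Ldha, Slc16a1, Pgd and Egln3. The log2 fold change was below 0 for 32 members, and its median was -0.29 over the members and -0.0022 over all genes tested. In 21 members all CD25 KO values lay below all WT values, which held for 9.17% of all genes. No member was above all WT mice in every CD25 KO mouse, which held for 7.2% of all genes. At an unadjusted p under 0.05, 25 members differed, as did 6433 of the 16986 genes tested, and DESeq2 also called 0 members higher. In what follows a gene is said to be called only by this edgeR test within a tissue, or by the edgeR test of the difference, unless another fit is named. At the same FDR, DESeq2 called 19 members lower in the thymus, the same 11 and Slc2a3, Hk1, Aldoa, Pkm, Slc16a3, Pgls, Taldo1 and Rpia. EdgeR called 23 when all 18 samples were in 1 fit. The background rose as well: of all genes, DESeq2 called 1246 of 16986 lower and the fit of all 18 samples 1585 of 18686. The number called lower depended on single mice. It was 4 or 5 when WT mouse 1, 2, 3 or 5 or CD25 KO mouse 1 or 3 was left out and 7 without CD25 KO mouse 5, while the number of all genes called lower fell from 508 to as few as 183. Pgam1, Eno1, Slc16a1 and Egln3 stayed below FDR 0.01 whichever mouse was left out, and the other 7 each lost the call in 4 to 8 of the 10 repeats. Without CD25 KO mice 2 and 4, 16 members were called lower, the same 11 and Hk1, Eno3, Slc16a3, Tkt and Rpia, as were 1232 of all 17433 genes tested. The remaining CD25 KO mice had cell cycle sums of 433 to 570 CPM, against 1100 to 2210 CPM in WT mice, so genotype and cell division cannot be told apart there. With all mice, the 24 cell cycle genes had a median log2 fold change of -0.65 in the thymus, and 0 were called. The part of cell division in the thymic results was not tested. In the thymus the log2 fold change of all genes fell with the GC content of the gene, with a Spearman rho of -0.4 over 16945 genes, and the median GC content was 52.6% for members and 49% for all genes tested. After correction for GC content the median of the members was -0.19, and 7 were called lower.

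**Figure D1:**
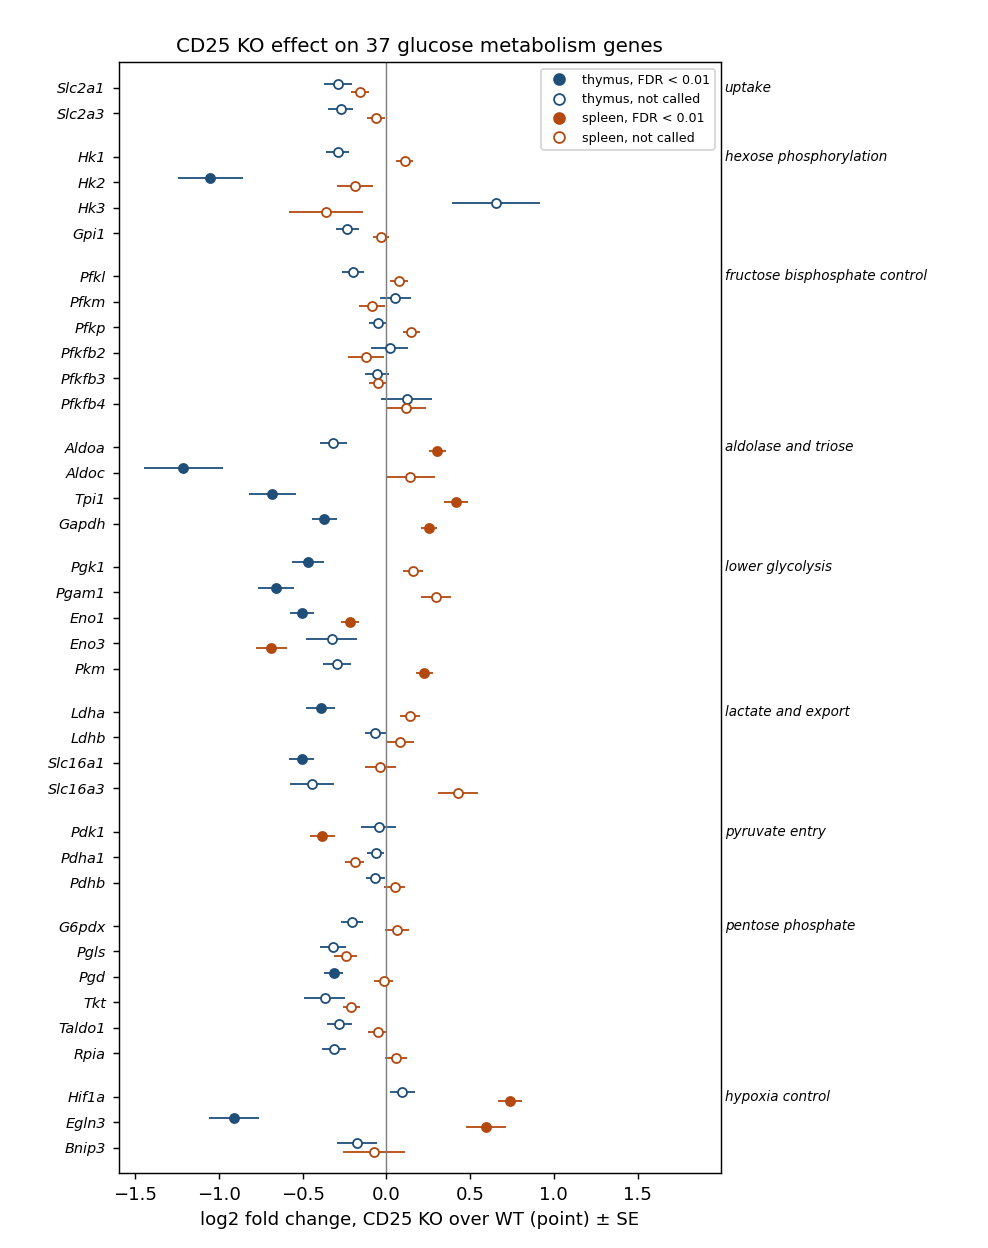
Log2 fold change of CD25 KO over WT (x axis) for each of the 37 genes, ordered by their step in the pathway, in thymus (blue, 5 against 5 mice) and spleen (orange, 4 against 4 mice); bars are ± SE and filled points passed FDR < 0.01. The thymic points lie left of 0 for 32 genes, while the splenic points lie on both sides, with 18 left and 19 right of 0.

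In splenic CD25 KO Tregs the members moved in both directions. Of the 37, 6 were called higher (16.2%), Aldoa, Tpi1, Gapdh, Pkm, Hif1a and Egln3, against 5.9% of the 17463 genes tested. There were 3 members called lower (8.11%), Eno1, Eno3 and Pdk1, against 3.55% of all genes. The median log2 fold change was 0.05 over the members and -0.0065 over all genes. Values did not overlap between genotypes for 9 members that were higher and 7 that were lower in CD25 KO mice, against 11.2% and 9.19% of all genes. The list of cell cycle genes moved with genotype here: 16 of its 23 tested genes were called higher and none lower, and its summed level was 492 to 536 CPM in WT and 672 to 811 CPM in CD25 KO Tregs. A list of 8 myeloid markers summed to 46.7 to 56.3 CPM in WT and 86.6 to 109 CPM in CD25 KO Tregs, and 2 of its 5 tested genes, Lyz2 and Cybb, were called higher. The other 3 were not called: Csf1r, at 4 to 8.59 CPM over all splenic mice, had a log2 fold change of -0.24 (FDR = 0.41), Adgre1, at 0.397 to 2.33 CPM, of -0.82 (FDR = 0.151), and Spi1, at 0.11 to 0.433 CPM, of 0.70 (FDR = 0.259). Cybb made up most of that sum, at 33.2 to 39.5 CPM in WT and 65 to 92.1 CPM in CD25 KO mice, while the defining markers Itgam, Cd14 and Csf3r were at 0 to 0.873 CPM in every splenic sample and did not pass the filter on low counts. The part of these cells and of cell division in the results on the spleen was not tested.

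The CD25 KO effect itself was compared between the tissues in 1 fit of all 18 samples. It was more positive in the spleen for 12 members (32.4%), Hk1, Aldoa, Aldoc, Tpi1, Gapdh, Pgk1, Pgam1, Pkm, Ldha, Slc16a3, Hif1a and Egln3, and more negative for 0. Of all 18686 genes tested, 4.5% had a more positive and 2.49% a more negative effect in the spleen. At an unadjusted p under 0.05, 25 members differed between the tissues, as did 6122 of all 18686 genes. DESeq2 called 17 members more positive and 0 more negative, against 1368 and 820 of all genes. The 17 were the same 12 and Hk2, Pfkl, Slc16a1, Pgd and Rpia. Scaling by upper quartiles instead of TMM turned the split of all genes with a different effect from 64.4% to 47.9% more positive, but called 11 members more positive and 0 more negative. Tpi1, Gapdh and Egln3 fell in the thymus and rose in the spleen, Eno1 fell in both, 7 members fell in the thymus only by these calls, and 21 were called in neither tissue by edgeR. Whether a gene called in a single tissue differed between tissues was judged by the test of the difference alone.

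Neither glucose transporter was called by edgeR within either tissue, but other fits called them lower in the thymus: DESeq2 called Slc2a3 (FDR = 0.00913), and edgeR with all 18 samples in 1 fit called both Slc2a1 (FDR = 0.00462) and Slc2a3 (FDR = 0.00485). Slc2a1, which encodes GLUT1, was at 31.8 to 38.6 CPM in the thymus of WT mice and 23.3 to 30.3 CPM in that of CD25 KO mice, with splenic ranges of 41.8 to 45.7 and 37.7 to 39.6 CPM. Its CD25 KO values lay below all WT values in both tissues, but the log2 fold changes of -0.29 (SE 0.0858, FDR = 0.0313) and -0.16 (SE 0.0551, FDR = 0.0647) did not pass the threshold within each tissue. Slc2a3, which encodes GLUT3, overlapped between genotypes in both tissues, with log2 fold changes of -0.27 (FDR = 0.025) and -0.06 (FDR = 0.486).

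Among the hexokinases, Hk2, the inducible mitochondria-bound form, was at 15, 12, 11.2, 13.5 and 14 CPM in thymic WT mice and at 4.2, 8.07, 7.41, 7.43 and 4.1 CPM in thymic CD25 KO mice. All CD25 KO mice were below all WT mice, with mice 1 and 5 lowest. Hk2 fell by 1.05 on the log2 scale (SE 0.194, FDR = 0.0046). In the spleen Hk2 was at 10.7, 10.3, 10.3 and 11.4 CPM in WT and 7.84, 11, 9.26 and 9.37 CPM in CD25 KO mice. Those groups overlapped, and the log2 fold change was -0.19 (SE 0.107, FDR = 0.257). The difference of 0.88 between the tissues did not pass the threshold by edgeR (SE 0.235, FDR = 0.0148), but did by DESeq2 (FDR = 0.00209).

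Hk1, the constitutive hexokinase, made up 88.9% ± 1.51 (SD, n = 5) of hexokinase transcripts per length in thymic WT Tregs. It was at 148, 172, 156, 158 and 164 CPM in thymic WT mice and at 132.9, 139.6, 126.7, 137.4 and 107.1 CPM in thymic CD25 KO mice. In the spleen it was at 182, 200, 199 and 198 CPM in WT and 199, 216, 216 and 208 CPM in CD25 KO mice. The thymic groups did not overlap and the splenic groups did, and neither log2 fold change passed the threshold by edgeR within a tissue, at -0.29 (FDR = 0.0141, and 0.00205 by DESeq2) and 0.11 (FDR = 0.158). The effect was 0.42 more positive in the spleen (SE 0.0922, FDR = 0.00457), a call lost without thymic WT mouse 5, thymic CD25 KO mouse 3, splenic WT mouse 1 or splenic CD25 KO mouse 2 or 3. Hk3 stayed at 2.38 CPM or less in every sample and was not called in either tissue by edgeR. Gpi1, phosphoglucose isomerase, had log2 fold changes of -0.23 (FDR = 0.0321, and 0.00506 with all 18 samples in 1 fit) and -0.03 (FDR = 0.701).

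None of the 6 genes that form or control fructose 1,6-bisphosphate was called by edgeR within either tissue or in the difference. An unadjusted p under 0.05 was found for 1 of them in each tissue and 2 in the difference. Of all genes tested, 6433 of 16986 in the thymus, 5227 of 17463 in the spleen and 6122 of 18686 in the difference had such a p. Pfkl was called by other fits: DESeq2 found its effect 0.30 more positive in the spleen (FDR = 0.00597), and edgeR with all 18 samples in 1 fit called it lower in the thymus (FDR = 0.00794). These are the phosphofructokinase subunits Pfkl, Pfkm and Pfkp and the bifunctional enzymes Pfkfb2, Pfkfb3 and Pfkfb4, which make and degrade fructose 2,6-bisphosphate, an activator of phosphofructokinase. Their log2 fold changes ran from -0.20 for Pfkl to 0.12 for Pfkfb4 in the thymus and from -0.12 for Pfkfb2 to 0.15 for Pfkp in the spleen. Pfkfb3 was the main bifunctional isoform, with 77.6% ± 1.05 (SD, n = 5) of the family per length in thymic WT and 78% ± 1.86 (SD, n = 4) in splenic WT Tregs. The phosphofructokinase subunits were more evenly spread, with Pfkl at 37.4%, Pfkm at 31.2% and Pfkp at 31.5% in thymic WT and 38.9%, 21.5% and 39.6% in splenic WT Tregs.

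For all 4 genes of the aldolase and triose steps the effect was more positive in the spleen. Aldoa was at 147, 172, 149, 153 and 174 CPM in thymic WT mice and at 146, 117, 132, 130 and 105 CPM in thymic CD25 KO mice. All CD25 KO values lay below WT, but by little in mouse 1, and the log2 fold change of -0.32 did not pass (SE 0.0817, FDR = 0.0183). In the spleen Aldoa was at 222, 229, 240 and 237 CPM in WT and at 288, 300, 286 and 271 CPM in CD25 KO mice. The splenic groups did not overlap, and Aldoa rose by 0.30 on the log2 scale (SE 0.0493, FDR = 0.000479). The difference between the tissues was 0.63 (SE 0.107, FDR = 0.000504).

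Aldoc, low throughout, was at 1.99, 1.53, 1.48, 1.6 and 1.15 CPM in thymic WT mice and at 0.7, 0.784, 0.436, 0.856 and 0.473 CPM in thymic CD25 KO mice. It fell by 1.21 on the log2 scale in the thymus (SE 0.237, FDR = 0.00587), the largest thymic decrease among the members, although it made up only 0.875% of aldolase transcripts per length in thymic WT Tregs. In the spleen Aldoc was at 5, 3.96, 4.33 and 3.82 CPM in WT and 5.02, 5.23, 4.82 and 3.83 CPM in CD25 KO mice, and the groups overlapped (log2 fold change 0.14, FDR = 0.556). The difference of 1.37 between the tissues passed (SE 0.266, FDR = 0.00171).

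Tpi1, triosephosphate isomerase (GRCm38 chr6:124810586-124814296, minus strand), was at 58.9, 64.1, 51.9, 59.7 and 71.5 CPM in thymic WT mice and at 35.3, 43.4, 34.4, 48.4 and 26.8 CPM in thymic CD25 KO mice. The highest CD25 KO values were those of mice 2 and 4, and all lay below WT. In the spleen the order turned, with 36.8, 33.4, 34.6 and 35.1 CPM in WT and 44.4, 49.7, 51 and 41.3 CPM in CD25 KO mice, again with no overlap. Tpi1 fell by 0.68 on the log2 scale in the thymus (SE 0.139, FDR = 0.0074) and rose by 0.42 in the spleen (SE 0.0695, FDR = 0.000624), a difference of 1.11 (SE 0.175, FDR = 0.00027). Its exons overlap those of Spsb2 on the other strand, and how strand was treated in counting is not given in the sources used here. Other called members also overlap exons on the other strand: Gapdh those of Iffo1, Aldoa of Fam57b, Hk1 of Hk1os and Hif1a of Gm15283. Pkm and Hif1a overlap exons on their own strand, those of Gm49759 and Gm49321.

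Gapdh, glyceraldehyde 3-phosphate dehydrogenase (chr6:125161715-125166467, minus strand), was at 315, 373, 333, 310 and 354 CPM in thymic WT mice and at 258, 279, 238, 287 and 225 CPM in thymic CD25 KO mice. In the spleen it was at 311, 324, 336 and 334 CPM in WT and at 378, 409, 394 and 375 CPM in CD25 KO mice. Neither tissue's groups overlapped, and the directions were opposite. Gapdh fell by 0.37 in the thymus (SE 0.0758, FDR = 0.00733) and rose by 0.26 in the spleen (SE 0.049, FDR = 0.00184), a difference of 0.64 (SE 0.0974, FDR = 0.000195). In the thymus, correction for GC content left Tpi1 at -0.59 (FDR = 0.0108) and Gapdh at -0.28 (FDR = 0.0126), outside the threshold. The thymic call of Tpi1 was also lost without any of the 5 WT mice or CD25 KO mouse 1 or 3 (FDR up to 0.0221), and that of Gapdh without WT mouse 1, 2, 3 or 5 or CD25 KO mouse 1, 3 or 5 (FDR up to 0.0245). The splenic calls of Aldoa, Tpi1 and Gapdh held whichever mouse was left out. With all 18 samples in 1 edgeR fit, all of these splenic calls were lost (FDR = 0.0193, 0.0495 and 0.0307).

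**Figure D2:**
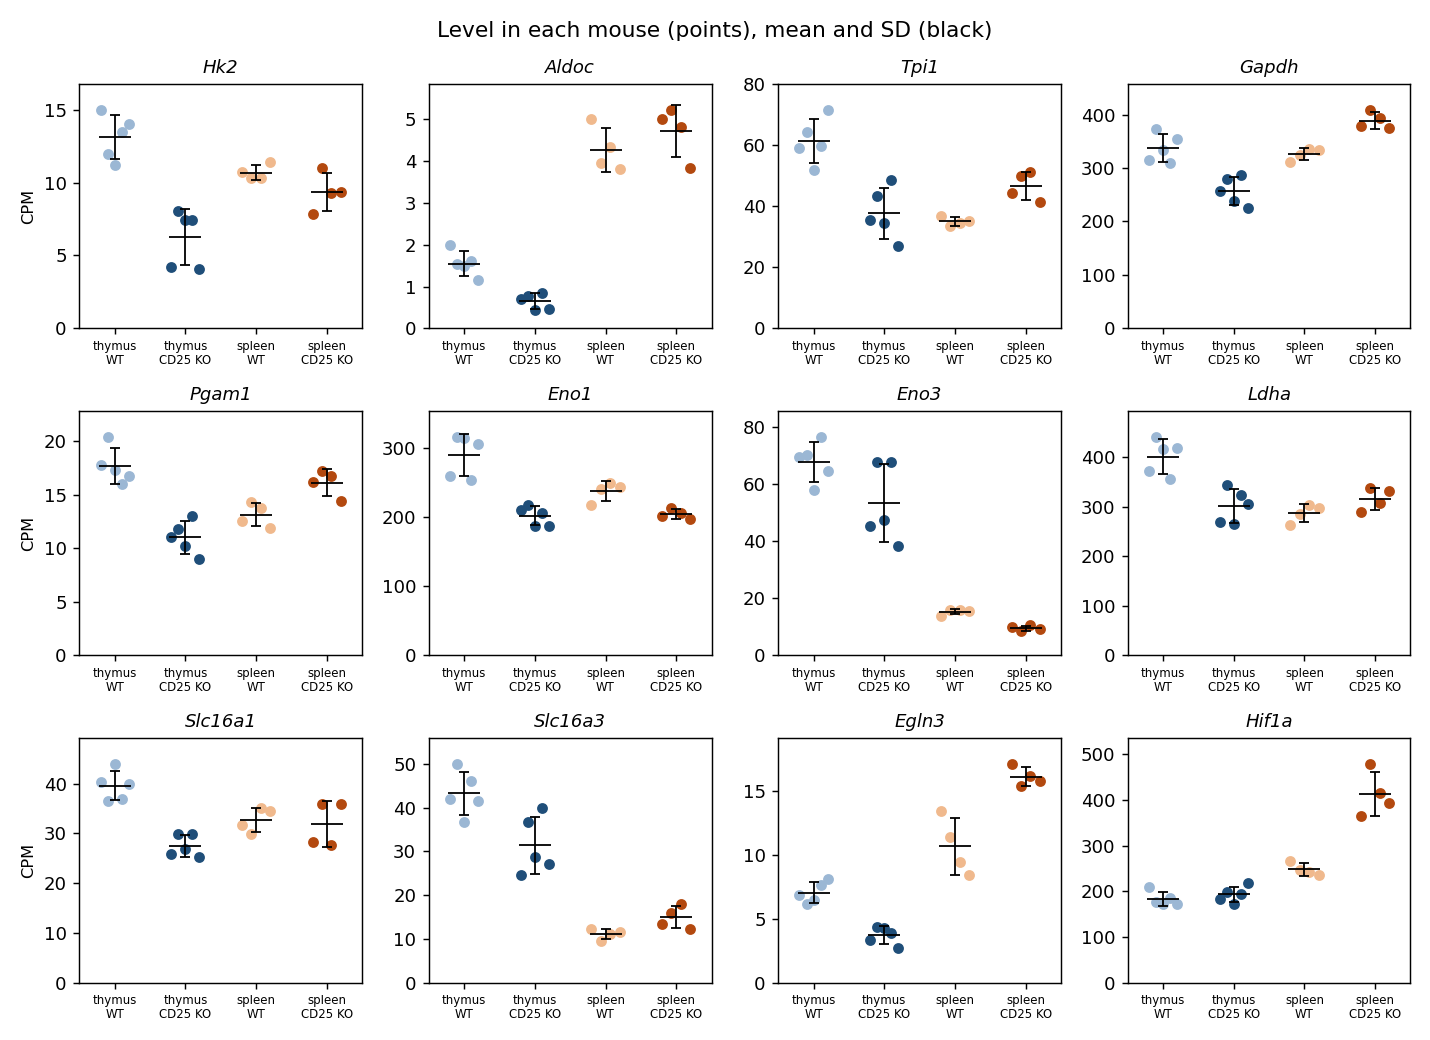
Level in CPM (y axis, from 0) of 12 of the genes in each mouse (points) of the 4 groups (x axis), with the mean and SD in black. Tpi1, Gapdh and Egln3 are lower in CD25 KO than WT in the thymus and higher in the spleen with no overlap, while Eno1 is lower in both and Hif1a is higher in the spleen alone by the test.

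In lower glycolysis, Pgk1, phosphoglycerate kinase, and Pgam1, phosphoglycerate mutase, fell in the thymus. Pgk1 was at 55.7, 63.5, 62.5, 53.4 and 67.1 CPM in thymic WT mice and at 40.2, 48.7, 39.7, 50 and 37.3 CPM in thymic CD25 KO mice, without overlap. Its log2 fold change was -0.47 in the thymus (SE 0.0948, FDR = 0.00713) and, after correction for GC content, -0.42 (FDR = 0.0111). In the spleen Pgk1 was at 49, 51.1, 55.8 and 54.9 CPM in WT and 53.7, 60.6, 60.8 and 59.5 CPM in CD25 KO mice, which overlapped (log2 fold change 0.16, FDR = 0.0899). The effects differed by 0.64 between the tissues (SE 0.121, FDR = 0.00142).

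Pgam1 was at 17.8, 20.4, 17.3, 16 and 16.8 CPM in thymic WT mice and at 11.1, 11.8, 10.2, 13 and 9.03 CPM in thymic CD25 KO mice. Splenic values were 12.6, 14.3, 13.8 and 11.9 CPM in WT and 16.2, 17.2, 16.8 and 14.4 CPM in CD25 KO mice. The groups did not overlap in either tissue, but only the thymic decrease passed the threshold. It was 0.66 on the log2 scale, that is, Pgam1 fell by 0.66 (SE 0.106, FDR = 0.00253), against a splenic log2 fold change of 0.29 (SE 0.0887, FDR = 0.0314) and a difference of 0.97 (SE 0.142, FDR = 0.000147).

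Eno1, the ubiquitous enolase (chr4:150236721-150248879, plus strand), was the single member called lower in both tissues. It was at 260, 316, 314, 254 and 306 CPM in thymic WT mice and at 211, 218, 188, 206 and 187 CPM in thymic CD25 KO mice. In the spleen it was at 217, 241, 249 and 244 CPM in WT and at 202, 214, 206 and 197 CPM in CD25 KO mice. Both decreases were free of overlap, by a wide margin in the thymus and a narrow margin in the spleen. Eno1 fell by 0.50 in the thymus (SE 0.0735, FDR = 0.00184) and by 0.22 in the spleen (SE 0.0529, FDR = 0.00971). The splenic call was lost without WT mouse 2, 3 or 4 or CD25 KO mouse 1, 3 or 4. With all 18 samples in 1 edgeR fit the splenic call was lost as well (FDR = 0.0716).

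Eno3, known as the muscle enolase, was at 69.5, 70.3, 57.9, 76.6 and 64.7 CPM in thymic WT mice and at 45.3, 68, 47.6, 67.8 and 38.3 CPM in thymic CD25 KO mice. Mice 2 and 4 were within the WT range and the other 3 below it, and the log2 fold change was -0.33 (SE 0.151, FDR = 0.134). Without mice 2 and 4 it was called lower. In the spleen Eno3 was at 14, 15.9, 16 and 15.6 CPM in WT and at 9.82, 8.59, 10.7 and 9.15 CPM in CD25 KO mice. It fell by 0.69 there (SE 0.0924, FDR = 9.53e-05), the largest splenic decrease among the members, and the call held whichever mouse was left out. Per length, Eno3 made up 42% ± 4.71 (SD, n = 5) of the enolases in thymic WT and 16.7% ± 0.173 (SD, n = 4) in splenic WT Tregs, and 44.4% ± 5.28 and 12.6% ± 1.18 in CD25 KO Tregs.

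Pkm was at 414, 505, 472, 417 and 525 CPM in thymic WT mice and at 393, 392, 379, 402 and 314 CPM in thymic CD25 KO mice. Splenic values were 364, 374, 386 and 398 CPM in WT and 443, 460, 452 and 424 CPM in CD25 KO mice. The groups did not overlap in either tissue, and the directions were opposite. In the thymus the log2 fold change of -0.29 did not pass (SE 0.0836, FDR = 0.0261), whereas in the spleen Pkm rose by 0.23 (SE 0.0494, FDR = 0.00466). The difference was 0.54 (SE 0.107, FDR = 0.00217). The splenic call was lost, with an FDR of up to 0.0223, without WT mouse 1, 2 or 3 or CD25 KO mouse 2 or 3. With all 18 samples in 1 edgeR fit that call was lost too (FDR = 0.0869).

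Parts of several of these transcripts also occur in other annotated genes, called copies here. For Pkm these include Gm49759, which overlaps its exons on the same strand. Of the 75-base stretches of Pgk1, 67.5% were found in another gene, as were 65.4% for Eno1, 40.6% for Pgam1, 22.8% for Gapdh and 19.6% for Pkm. The copies that were listed and counted held few counts, at most 8.01% of the member's own counts (Pkm). Adding them to the member changed no count of calls. The list of Gapdh copies was cut short, and how reads that match several places were counted is not given in the sources used here. These counts therefore cannot show how far copies affect the levels of the members.

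For lactate, Ldha was at 372, 440, 415, 355 and 418 CPM in thymic WT mice and at 268, 343, 265, 324 and 305 CPM in thymic CD25 KO mice. All CD25 KO mice were below WT, and Ldha fell by 0.39 (SE 0.0855, FDR = 0.00949). This value lay close to the threshold, and the log2 fold change was -0.32 (FDR = 0.0237) after correction for GC content. In the spleen Ldha was at 262, 285, 303 and 298 CPM in WT and 289, 337, 307 and 331 CPM in CD25 KO mice, which overlapped (log2 fold change 0.14, FDR = 0.134). The difference was 0.55 (SE 0.114, FDR = 0.00289), lost without splenic CD25 KO mouse 2 or 4 (FDR up to 0.0124). Ldhb, whose subunit favours the return of lactate to pyruvate, had log2 fold changes of -0.07 (FDR = 0.462) in the thymus and 0.08 (FDR = 0.561) in the spleen. Its share of lactate dehydrogenase transcripts per length was 18.2% ± 0.461 (SD, n = 5) in thymic Tregs of WT mice and 22% ± 2.23 (SD, n = 5) in those of CD25 KO mice. In the spleen the shares were 18.8% ± 1.3 and 18.2% ± 1.55 (SD, n = 4 each).

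Lactate leaves the cell through MCT1, encoded by Slc16a1, and MCT4, encoded by Slc16a3. Slc16a1 was at 40.3, 36.6, 43.9, 37 and 40 CPM in thymic WT mice and at 25.8, 29.9, 26.8, 29.9 and 25.2 CPM in thymic CD25 KO mice, with no overlap. It fell by 0.51 in the thymus (SE 0.0767, FDR = 0.00213). In the spleen Slc16a1 was at 31.6, 29.9, 35.1 and 34.4 CPM in WT and 28.3, 35.8, 27.6 and 35.8 CPM in CD25 KO mice, where CD25 KO values fell on either side of WT (log2 fold change -0.04, FDR = 0.834). The difference of 0.48 did not pass by edgeR (SE 0.125, FDR = 0.0125), but did by DESeq2 (FDR = 0.00313).

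Slc16a3 was at 42, 49.9, 36.6, 46 and 41.6 CPM in thymic WT mice and at 24.6, 36.7, 28.6, 39.8 and 27.1 CPM in thymic CD25 KO mice. As for Eno3, CD25 KO mice 2 and 4 reached the WT range and the other 3 did not, and the log2 fold change was -0.44 (SE 0.132, FDR = 0.0315). In the spleen Slc16a3 was at 12.2, 9.6, 11 and 11.6 CPM in WT and at 13.5, 15.9, 18 and 12.3 CPM in CD25 KO mice. These did not overlap, but the log2 fold change of 0.43 did not pass by edgeR (SE 0.119, FDR = 0.0207), whereas DESeq2 called it higher (FDR = 0.0069). The effect was 0.89 more positive in the spleen (SE 0.194, FDR = 0.00419), a call lost without thymic CD25 KO mouse 3, splenic WT mouse 2 or 3 or splenic CD25 KO mouse 2 or 3 (FDR up to 0.0138).

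**Figure D3:**
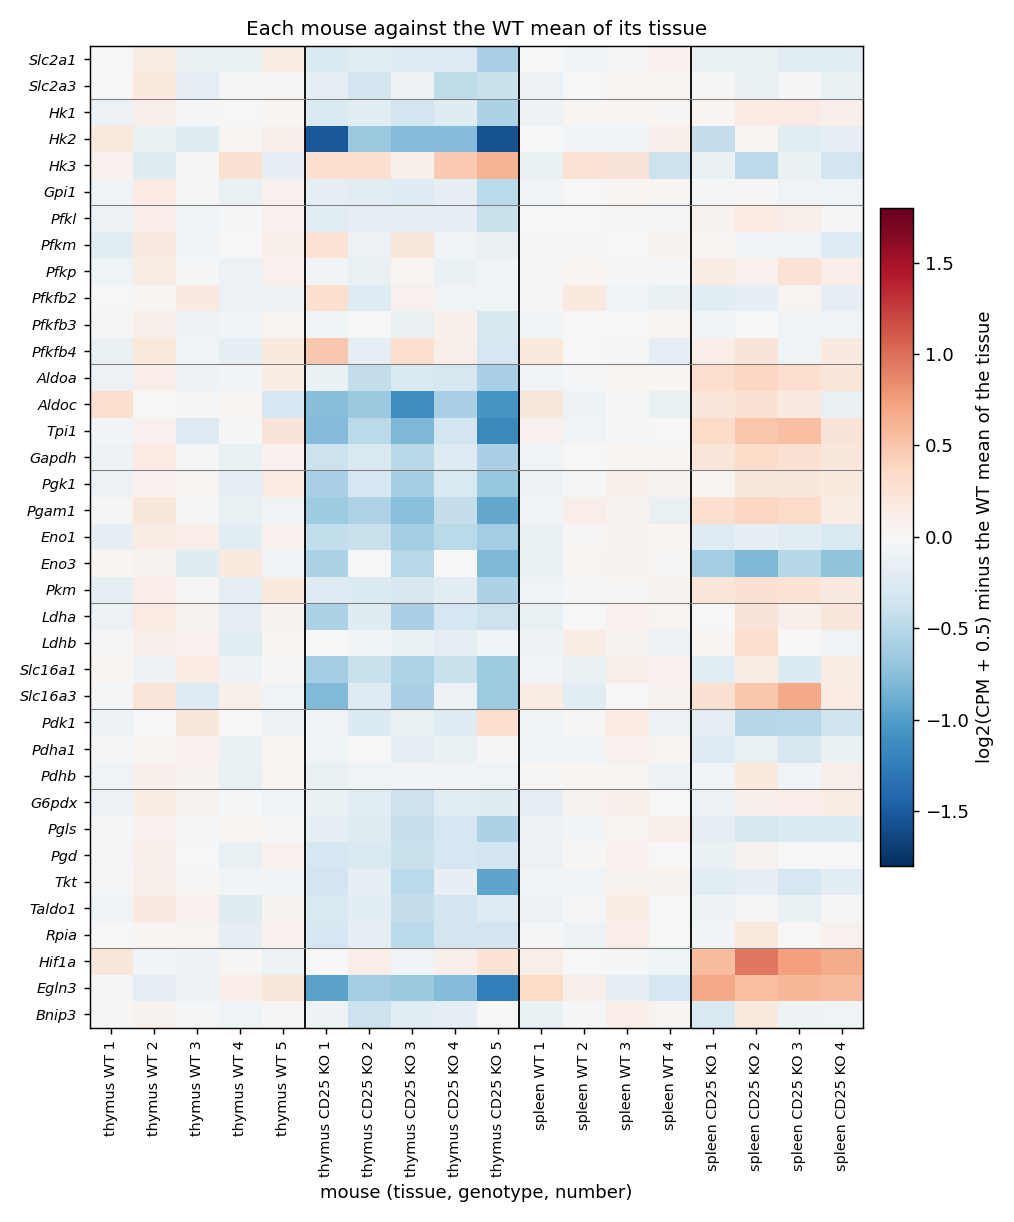
Log2(CPM + 0.5) of each gene (rows, in pathway order) in each of the 18 mice (columns) minus the mean of the WT mice of the same tissue, from blue (lower) to red (higher). Thymic CD25 KO columns are blue for most rows, with 26 to 28 of the 37 genes below all WT mice, and splenic CD25 KO columns are mixed, with 11 to 13 genes below and 11 to 21 above all WT mice.

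Each thymic CD25 KO mouse had 26 to 28 of the 37 members below all 5 WT mice and 1 to 4 above them, whereas 26.5% to 36.2% of all genes tested were below and 21.3% to 31.1% above. Each splenic CD25 KO mouse had 11 to 13 members below all 4 WT mice and 11 to 21 above them, against 26.3% to 32.2% and 26.9% to 32.2% of all genes.

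At the entry of pyruvate into the mitochondrion, Pdk1, the kinase that inactivates pyruvate dehydrogenase, was at 129.2, 138.8, 150.9 and 127.2 CPM in splenic WT mice and at 121, 94.9, 95.9 and 106 CPM in splenic CD25 KO mice. The groups did not overlap, mouse 1 coming closest, and Pdk1 fell by 0.38 (SE 0.0764, FDR = 0.00244). This call was lost without WT mouse 3 (FDR = 0.012) and with all 18 samples in 1 edgeR fit (FDR = 0.0258). In the thymus Pdk1 was at 90, 95.6, 111, 95.9 and 89.1 CPM in WT and at 92.2, 81.1, 87.6, 81.4 and 119 CPM in CD25 KO mice. These overlapped, with CD25 KO mouse 5 the highest of all (log2 fold change -0.05, FDR = 0.769). Pdha1 and Pdhb, the subunits of the pyruvate dehydrogenase component that Pdk1 phosphorylates, were not called, at -0.06 (FDR = 0.39) and -0.07 (FDR = 0.404) in the thymus and -0.19 (FDR = 0.0261) and 0.05 (FDR = 0.638) in the spleen.

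In the pentose phosphate pathway 1 of 6 genes passed edgeR's test in the thymus and 0 of 6 in the spleen. There 2 of the 6 had an unadjusted p under 0.05, as did 5227 of the 17463 genes tested. DESeq2 called 4 of the 6 lower in the thymus, Pgd with Pgls (FDR = 0.00229), Taldo1 (FDR = 0.00524) and Rpia (FDR = 0.00157), and 1 lower in the spleen, Tkt (FDR = 0.00305). Pgd, 6-phosphogluconate dehydrogenase, which forms NADPH, was at 64.4, 71, 66.5, 60.6 and 69.7 CPM in thymic WT mice and at 53.1, 55.3, 50.3, 53.2 and 51.9 CPM in thymic CD25 KO mice. It fell by 0.32 with no overlap (SE 0.0547, FDR = 0.00364). In the spleen Pgd was at 52.1, 57, 59.4 and 56.2 CPM in WT and 51.6, 58.9, 55.6 and 55.9 CPM in CD25 KO mice, with a log2 fold change of -0.02 (FDR = 0.888). The other 5 genes all had negative thymic log2 fold changes that did not pass in edgeR, with an FDR of 0.0115 to 0.0475: -0.21 for G6pdx, the entry enzyme glucose 6-phosphate dehydrogenase, -0.32 for Pgls, 6-phosphogluconolactonase, -0.37 for Tkt, transketolase, -0.28 for Taldo1, transaldolase, and -0.32 for Rpia, ribose 5-phosphate isomerase. In the spleen they were 0.06, -0.24, -0.21, -0.05 and 0.06 in that order, and Pgls and Tkt had all CD25 KO mice below all WT mice (edgeR FDR = 0.0226 and 0.0123).

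Hif1a, which encodes the regulated subunit of HIF-1, was at 267, 246, 243 and 235 CPM in splenic WT mice and at 365, 478, 415 and 393 CPM in splenic CD25 KO mice. It rose by 0.74 (SE 0.0723, FDR = 4.88e-06), the largest splenic increase among the members, and the call held whichever mouse was left out. In the thymus Hif1a was at 210, 177, 171, 185 and 172 CPM in WT and at 184, 198, 173, 194 and 218 CPM in CD25 KO mice, which overlapped (log2 fold change 0.10, SE 0.0755, FDR = 0.378). The difference was 0.66 (SE 0.112, FDR = 0.000563).

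Egln3 (chr12:54178981-54203860, minus strand) encodes PHD3, a prolyl hydroxylase that marks HIF-α for degradation and is itself a known HIF target. It was at 6.88, 6.12, 6.47, 7.63 and 8.11 CPM in thymic WT mice and at 3.35, 4.38, 4.25, 3.87 and 2.68 CPM in thymic CD25 KO mice. In the spleen it was at 13.4, 11.4, 9.43 and 8.43 CPM in WT and at 17.1, 15.4, 16.2 and 15.8 CPM in CD25 KO mice. The groups did not overlap in either tissue, and the directions were opposite. Egln3 fell by 0.91 in the thymus (SE 0.149, FDR = 0.00276) and rose by 0.60 in the spleen (SE 0.12, FDR = 0.00256, and 0.012 without WT mouse 3). The difference of 1.52 was the largest among the members (SE 0.199, FDR = 4.38e-05). Bnip3, a HIF target, was not called in either tissue by edgeR, at -0.18 (FDR = 0.311) and -0.07 (FDR = 0.832), and 46.3% of its 75-base stretches also occur in other genes.

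Because several members with lower levels in the thymus are known HIF targets, the 250 bases before their transcription starts were searched for ACGTG on both strands. This is a form of the core of the hypoxia response element, and other forms of the core were not searched. RefSeq (GRCm38.p6) gave 52 such windows for 36 of the 37 members. Slc2a3 had none. ACGTG occurred in 21 of the 52 windows (40.4%) and in 16.6% of all 32851 windows, whose median GC content was 52.4% against 60.4% in the member windows. The E-box CACGTG, which contains these letters on both strands, was in 7 member windows (13.46%) and 6.02% of all windows. Counted by gene, 17 of the 36 members (47.2%) and 18.5% of the 27025 genes with a window held ACGTG. Of the 11 members called lower in the thymus, 6 (54.5%) had a window with ACGTG, namely Hk2, Pgk1, Pgam1, Ldha, Slc16a1 and Egln3, and Aldoc, Tpi1, Gapdh, Eno1 and Pgd had none in these windows. A match is a description of these letters and not a site shown to be bound. The windows of 4 of the 6 are shown 5′ to 3′ in the direction of the gene, to let the matches be seen beside the values above. None of these 4 windows overlaps the annotated span of its own gene, whereas some other member windows, such as that of Tpi1, do. Capitals mark ACGTG or its reverse complement CACGT.
Hk2, chr6:82774455-82774704, minus strand: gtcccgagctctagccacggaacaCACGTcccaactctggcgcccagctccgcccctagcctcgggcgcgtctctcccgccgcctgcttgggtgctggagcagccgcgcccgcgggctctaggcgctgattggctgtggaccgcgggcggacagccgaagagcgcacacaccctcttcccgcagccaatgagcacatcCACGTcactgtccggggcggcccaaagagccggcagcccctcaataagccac
Pgk1, chrX:106186850-106187099, plus strand: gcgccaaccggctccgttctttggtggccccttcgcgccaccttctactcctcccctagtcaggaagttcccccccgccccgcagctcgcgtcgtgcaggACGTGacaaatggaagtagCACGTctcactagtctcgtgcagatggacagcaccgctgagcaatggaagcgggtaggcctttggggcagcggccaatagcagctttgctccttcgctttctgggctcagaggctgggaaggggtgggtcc
Slc16a1, chr3:104638414-104638663, plus strand: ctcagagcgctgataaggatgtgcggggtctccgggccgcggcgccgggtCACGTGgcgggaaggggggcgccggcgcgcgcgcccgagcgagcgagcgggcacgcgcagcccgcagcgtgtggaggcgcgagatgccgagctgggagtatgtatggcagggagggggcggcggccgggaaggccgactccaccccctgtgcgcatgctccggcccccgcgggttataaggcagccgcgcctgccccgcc
Egln3, chr12:54203875-54204124, minus strand: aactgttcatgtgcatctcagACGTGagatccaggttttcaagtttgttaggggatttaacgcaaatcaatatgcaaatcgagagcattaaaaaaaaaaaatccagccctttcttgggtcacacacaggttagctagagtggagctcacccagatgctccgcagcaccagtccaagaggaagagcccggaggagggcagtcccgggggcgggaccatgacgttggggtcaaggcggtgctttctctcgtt
Hk2 and Pgk1 each hold separate matches, Slc16a1 holds an E-box, and Egln3, the gene with opposite calls in the tissues, holds a single match far from the start.

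**Figure D4:**
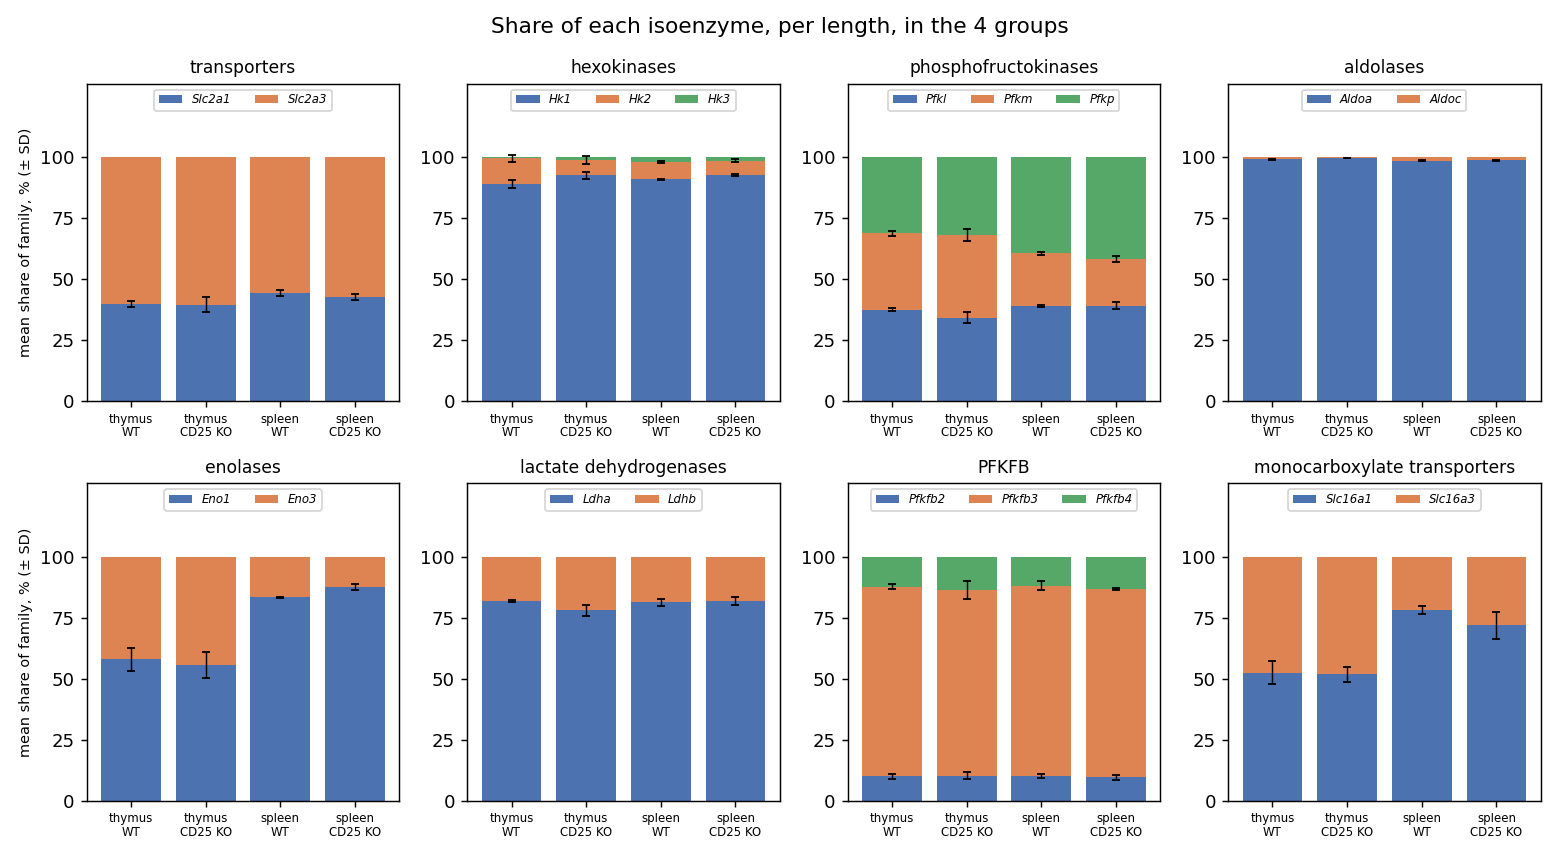
Mean share of each isoenzyme in the per-length level of its family (y axis, %) in the 4 groups (x axis; 5 thymic or 4 splenic mice each), with bars of ± SD at the border between isoenzymes. Eno3 and Slc16a3 take a larger share in thymic than in splenic Tregs, and Hk1, Aldoa, Ldha and Pfkfb3 dominate their families in all groups.

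The WT groups also differed from each other. Of the 37 members, 13 were lower in the spleen than in the thymus (35.1%) and 12 higher (32.4%), against 19.5% and 21% of all genes. The largest were Eno3, lower in the spleen by a log2 difference of -2.14 (SE 0.143, FDR = 1.45e-10), Hk3, higher by 1.98 (SE 0.242, FDR = 9.32e-07), and Slc16a3, lower by -1.96 (SE 0.143, FDR = 5.71e-10). The value for Hk3 rested on 8 to 15 counts per thymic WT library. Slc16a3 made up 47.6% ± 4.7 (SD, n = 5) of the level of Slc16a1 and Slc16a3 per length in thymic WT and 22% ± 1.64 (SD, n = 4) in splenic WT Tregs. Aldoc was higher in the spleen by 1.46 and Tpi1 lower by -0.81, so that Tpi1 in splenic WT Tregs, at 33.4 to 36.8 CPM, lay within the range of thymic CD25 KO Tregs. The cell cycle list also differed between the WT groups, with 19 of its 24 genes lower in the spleen. A gene of this list, Kif11, had 0 counts in every splenic library of both genotypes, and the reason was not tested. The myeloid list summed to 6.96 to 34.7 CPM in thymic and 46.7 to 56.3 CPM in splenic WT Tregs. A list of 6 immature thymocyte genes summed to 60 to 177 and 27.2 to 33.1 CPM. The part of these lists in the differences was not tested.

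Related genes outside the 37 were examined in the same edgeR tests. In these, 6433 of all 16986 genes in the thymus and 5227 of 17463 in the spleen had an unadjusted p under 0.05. Of other glycolytic isoenzymes and glucose transporters, 0 of 16 tested were called in the thymus, where 2 had an unadjusted p under 0.05 and DESeq2 also called 0. In the spleen 3 of 17 were called: Adpgk, the ADP-dependent glucokinase, fell by 0.53 (FDR = 2.93e-06), Ldhd, the D-lactate dehydrogenase, fell by 0.68 (FDR = 0.0075), and Galm, galactose mutarotase, rose by 0.43 (FDR = 0.00066). Adpgk was at 71.4, 68.5, 70.3 and 68 CPM in splenic WT mice and 49.2, 46.8, 47.7 and 48.6 CPM in splenic CD25 KO mice. Of other pyruvate and monocarboxylate genes, 0 of 15 were called in the thymus, with 5 at an unadjusted p under 0.05 and 3 called by DESeq2 (Bsg lower, Slc16a4 and Slc16a6 higher), and 1 of 14 in the spleen, Emb, which encodes the MCT partner embigin and rose by 0.43 (FDR = 0.000714). Of 9 other pentose phosphate genes 0 were called in either tissue, with 2 in the thymus and 3 in the spleen at an unadjusted p under 0.05, whereas DESeq2 called Prpsap1 lower in the thymus and, in the spleen, H6pd lower and Tktl1 higher. Of 4 glucose sensing factors 0 were called by edgeR or DESeq2, with 0 and 1 at that level. Of the side branches of hexose metabolism, Pck2, mitochondrial phosphoenolpyruvate carboxykinase, fell by 0.93 in the thymus (FDR = 0.00209), Pgm2, of the phosphoglucomutase family, rose by 0.51 there (FDR = 0.00345), and Ugp2, which makes UDP-glucose, rose by 0.31 in the spleen (FDR = 0.00865), among 15 and 14 tested.

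Other genes of the HIF pathway were called lower in 3 and higher in 0 of 19 cases in the thymus, and lower in 2 and higher in 2 of 18 in the spleen. DESeq2 called 6 lower and 0 higher in the thymus and 2 lower and 3 higher in the spleen. The thymic 3 were Ddit4, an mTORC1 inhibitor, which fell by 0.68 (FDR = 0.00704), P4ha1, a collagen prolyl hydroxylase, which fell by 0.66 (FDR = 0.00171), and Ndrg1, which fell by 0.52 (FDR = 0.00364). P4ha1 was at 85.2, 89.1, 82.4, 80.3 and 89 CPM in thymic WT mice and at 47.7, 53.4, 49.3, 47.6 and 68.7 CPM in thymic CD25 KO mice, without overlap. In the spleen Epas1, which encodes HIF-2α, rose by 1.46 (FDR = 2.76e-06), from 17.4, 11.5, 10.7 and 18.3 CPM in WT to 41.4, 41.2, 36.5 and 40.1 CPM in CD25 KO mice. Bhlhe40, a transcriptional repressor, rose by 1.08 (FDR = 2.03e-06), while Ddit4 fell by 0.41 (FDR = 0.000604) and Hif3a, whose product can restrain HIF, fell by 0.66 (FDR = 0.00807).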

How the data were processed

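RNA-seq libraries were made from total RNA of sorted Tregs with rRNA removal and sequenced as paired-end 75-base reads, each tissue in its own run. The authors aligned reads to GRCm38 with STAR (2.5.0b per the labels), counted them per gene of GENCODE M13 with featureCounts (1.5.0) and deposited raw counts without normalization. Symbols, exonic length, GC content and copies came from GENCODE M21, in which 50376 of 50600 identifiers have a symbol. R 4.3.3 with edgeR 4.0.16 was used: filterByExpr, TMM scaling and the quasi-likelihood test (glmQLFit, glmQLFTest) within each tissue, with Benjamini-Hochberg adjustment over all genes tested and a threshold of FDR < 0.01. Difference of effects and WT tissues were tested in 1 fit of all 18 samples with 4 groups. The paper's methods name DESeq2, run here as an alternative (1.42.0). CPM were scaled by TMM over all 18 samples, and per-length levels are CPM per kb of exon. SE come from the fold change and F statistic. The procedure was tested on simulated data.

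The members and the other gene lists were chosen with earlier results of these data known, so counts of members are descriptions of the list. All 37 members are accounted for; those past the threshold in either tissue or in the difference are given for every mouse, and up to 3 called genes of each other list per direction and tissue may be named. Alternatives were RLE and upper-quartile scaling, DESeq2, no filter, at least 10 counts in every sample, FDR < 0.05, 1 fit of all 18 samples, correction of each library's GC trend, the mouse number as a block and leaving out each mouse; thymic CD25 KO mice 2 and 4 left out and copies added were chosen after seeing the data. Replicates of a group differed beyond counting noise in every pair, so none were merged. Samples with 17239774 to 32639570 counts detect 3 counts at 0.095 to 0.163 CPM; such floors cover counting error only, since reads carry no molecular identifiers.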

Additional observations from a re-analysis of the deposited data

Results flagged for a closer look

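Of 148 groups of values tested for a sample far from the others (37 genes in 4 groups), 8 had such a sample. Each test alone flags 1 in 20 by chance. Genes measured in the same mice are not independent, so the total cannot be judged against that rate. Of the 8, 4 belonged to thymic CD25 KO mouse 5, which was lowest for Slc2a1 (23.3 CPM, the others 29.3 to 30.3), Gpi1 (148 CPM, the others 176 to 184), Pfkl (47.4 CPM, the others 54.6 to 56.4) and Pkm (314 CPM, the others 379 to 402). In the spleen, WT mouse 1 was lowest for Hk1 (182 CPM, the others 198 to 200) and CD25 KO mouse 1 for G6pdx (35 CPM, the others 40.5 to 41.5), while CD25 KO mouse 3 was highest for Pfkfb2 (8.54 CPM, the others 7.19 to 7.36) and CD25 KO mouse 2 for Pfkfb3 (66.9 CPM, the others 63.6 to 63.8).

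The CD25 KO effect differed between the tissues at FDR < 0.01 in edgeR's quasi-likelihood test for 12 genes. The difference, spleen minus thymus on the log2 scale, was 0.42 for Hk1, 0.63 for Aldoa, 1.37 for Aldoc, 1.11 for Tpi1, 0.64 for Gapdh, 0.64 for Pgk1, 0.97 for Pgam1, 0.54 for Pkm, 0.55 for Ldha, 0.89 for Slc16a3, 0.66 for Hif1a and 1.52 for Egln3.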

How the results depend on the processing

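No called value of a member changed its direction under any alternative. In the thymus, the 11 members called lower became 19 with DESeq2, 24 at FDR < 0.05, 23 with all 18 samples in 1 fit, 7 after GC correction (Tpi1, Gapdh, Pgk1 and Ldha lost) and 4 to 12 when single mice were left out. Of all genes, 508 were called lower in the main test, 1246 with DESeq2, 1858 at FDR < 0.05, 1585 in the 1 fit and 456 after GC correction. Without CD25 KO mice 2 and 4 there were 16, and 1232 of all genes were called lower. In the spleen, the 3 called lower became 5 with upper-quartile scaling, 6 at FDR < 0.05, 1 with all 18 samples in 1 fit and 1 to 3 when single mice were left out (1 without WT mouse 3). The 6 called higher became 2 with all 18 samples in 1 fit, and 4 to 7 when single mice were left out. In that 1 fit Aldoa, Tpi1, Gapdh and Pkm lost their higher calls, and Eno1 and Pdk1 their lower calls. Of all genes, 1031 were called higher and 620 lower in the main splenic test, and 424 and 371 in the 1 fit. The 12 members with a more positive effect in the spleen became 18 at FDR < 0.05 and 9 to 15 when single mice were left out. Of all genes, 840 had a more positive effect in the main test and 1835 at FDR < 0.05. With upper-quartile scaling 64.7% instead of 51.5% of all genes called in the thymus were higher. The causes of these changes were not tested.

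The thymic mice carry numbers that both genotypes share, but same-numbered mice did not deviate together (correlations -0.256 to 0.132, and only CD25 KO mouse 1 was closest to its own number). With the number as a replicate block, 0 members were called lower and 0 higher in the thymus, and 1, Slc16a1, with the block and GC correction, while of all genes 158 were called lower and 51 higher with the block, against 508 and 539 without it. In the spleen, no paired analysis was possible because the mice there carry no shared numbers.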
